A study of Mus musculus with 12 samples.

Results

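The tumour necrosis factor (TNF) superfamily comprises trimeric, mostly membrane-bound ligands and the cysteine-rich receptors that bind them. Members were taken from the count table by gene symbol: every Tnfsf and Tnfrsf number, together with Tnf, Lta, Ltb, Ltbr, Fas, Fasl, Cd27, Cd70, Cd40, Cd40lg, Eda and Edar, without Tnfrsf4 and Tnfrsf18, and with a total of 10 counts or more across the 8 libraries. This gave 42 genes of 20454 tested, of which 18 were ligands, 23 were receptors and 1, Tnfsf13os, was an antisense transcript. All 42 matching rows passed the minimum, so no member was lost to it.

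RNA-seq of periocular skin was compared between 4 ft/ft libraries and 4 ft/ftMyD88-/- libraries, all from 6-week-old BALB/c mice. Both groups carry the filaggrin (Flg) point mutation ft on both alleles, from a stock described as free of the matted (ma) mutation in Tmem79. The ft/ftMyD88-/- mice lack in addition MyD88, the adaptor of Toll-like and IL-1 family receptors, in every cell, so no cell type can be assigned to the deletion. The comparison asked how filaggrin-deficient skin without MyD88 differs from filaggrin-deficient skin with it. According to the study, ft/ftMyD88-/- mice of this age all have spontaneous inflammation of the periocular skin. It describes no visible inflammation in ft/ft mice. Loss of MyD88 and inflamed skin therefore go together in these groups and cannot be told apart for any gene. The part of inflammation in the changes was not tested. Wild-type mice, and MyD88-/- mice with intact filaggrin, were not analysed here.

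Many receptors of the family carry a death domain, which recruits adaptors and caspases, or bind TRAF proteins, which lead to NF-kB and MAP kinases. In skin, keratinocytes and stromal cells carry receptors for TNF, lymphotoxin and TWEAK. Lymphocytes use Cd27, Cd40, Tnfrsf8 (CD30), Tnfrsf9 (4-1BB) and Tnfrsf25 (DR3) in co-stimulation, and the pair Eda and Edar patterns hair follicles and glands.

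Some properties of the libraries touch every result. Totals ranged from 15802957 to 29255129 counts, and 3 counts, the limit that a count of 0 allows, were worth 0.102 to 0.183 CPM, the count scaled to a common library size. Myd88 itself did not fall with the label ft/ftMyD88-/- but was higher, at 41.2 ± 7.29 CPM (SD, n = 4) against 30.7 ± 4.74 CPM in ft/ft. Its groups overlapped, and its log2 fold change of 0.42 passed narrowly (95% interval 0.12 to 0.73, edgeR adjusted p = 0.0484). The position of the deletion is not given in the sources used here, so the counts of the gene do not check the labels. Tmem79 was at 16.4 ± 2.10 CPM in ft/ftMyD88-/- and 59.2 ± 2.92 CPM in ft/ft. Xist had 567 to 1964 counts in each ft/ftMyD88-/- library and at most 1 in each ft/ft library, while Y-linked genes summed to 2688 to 4266 counts in ft/ft and at most 30 in ft/ftMyD88-/-. The study describes its mice as sex-matched and female, but the ft/ft libraries showed the male pattern, with Y-linked transcripts and almost no Xist. Sex-linked transcripts separated the groups completely, so for every gene the genotype and the sex cannot be told apart. Nothing says that libraries of 1 group came from separate litters or cages, so p-values measure the spread between these libraries.

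The windows before the transcript starts of 3 members that rose are shown, since they hold motifs of NF-kB and AP-1, the factors that act below most receptors of the family. They are the 250 bases before a RefSeq transcript start on GRCm38.p6 and run 5′ to 3′ along the gene. Capitals mark matches on either strand to the NF-kB consensus and, in the last run of Tnfrsf9 and of Tnfrsf8, to the AP-1 type motif TGANTCA.
Ltb, chr17:35194257-35194506, plus strand: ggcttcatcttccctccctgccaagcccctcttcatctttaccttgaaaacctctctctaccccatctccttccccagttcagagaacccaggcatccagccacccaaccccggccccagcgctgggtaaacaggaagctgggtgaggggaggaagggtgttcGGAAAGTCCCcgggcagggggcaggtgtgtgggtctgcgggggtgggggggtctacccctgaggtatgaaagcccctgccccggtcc
Tnfrsf9, chr4:150927749-150927998, plus strand: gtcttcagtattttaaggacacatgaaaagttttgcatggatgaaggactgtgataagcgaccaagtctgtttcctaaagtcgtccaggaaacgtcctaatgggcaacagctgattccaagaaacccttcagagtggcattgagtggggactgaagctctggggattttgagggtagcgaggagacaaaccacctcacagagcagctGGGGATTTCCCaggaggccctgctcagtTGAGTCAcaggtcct
Tnfrsf8, chr4:145315165-145315414, minus strand: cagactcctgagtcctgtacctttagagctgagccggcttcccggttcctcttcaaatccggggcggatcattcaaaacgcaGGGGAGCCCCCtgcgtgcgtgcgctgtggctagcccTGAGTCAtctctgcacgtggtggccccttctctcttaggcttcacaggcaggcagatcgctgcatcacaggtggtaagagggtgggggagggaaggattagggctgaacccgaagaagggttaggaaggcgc

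Ltb encodes lymphotoxin beta, Tnfrsf9 the co-stimulatory receptor 4-1BB and Tnfrsf8 the lymphocyte receptor CD30. The Ltb and Tnfrsf9 windows end at transcript starts inside the genes as annotated, and the NF-kB runs of Tnfrsf9 and Tnfrsf8 each hold 2 overlapping matches. Windows were found for 31 of the 42 members, among them 13 of the 14 that passed the test described next. The NF-kB consensus occurred in 4 of these 31 genes, the 3 shown and Tnfrsf25. By window it occurred in 4 of their 35 windows and in 7.25% of 32851 windows of all genes. Another form of this motif, tried first, also occurred in 4 of the 31, Ltb, Tnfrsf9, Tnfrsf25 and Tnfrsf13b. It was in 4 of the 35 windows and in 4.11% of all windows. TGANTCA occurred in 6 of the 31, Fas, Tnfrsf8, Tnfrsf9, Tnfsf13, Tnfsf13b and Tnfsf14, in 6 of the 35 windows and in 6.75% of all windows. TATAAA occurred in 6, Lta, Tnf, Tnfrsf17, Tnfrsf23, Tnfsf11 and Tnfsf18, none of which passed the test. It was in 6 of the 35 windows and in 12.4% of all windows. A match describes letters in a window and is not a binding site, and the motifs were not tested for enrichment.

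Of the 42 members, 11 rose and 3 fell in ft/ftMyD88-/- compared with ft/ft skin at an adjusted p under 0.05 (edgeR quasi-likelihood test, Benjamini-Hochberg adjustment over all genes tested). The share that rose was 26.2%, against 10.9% of all genes tested, and the share that fell was 7.14% against 12.3%. In either direction 33.3% of members were called, against 23.3% of all genes. The median log2 fold change was 0.33 over the members, with or without Fasl and Tnfsf4, and 0.01 over all genes. With totals alone as the scale, in place of TMM normalization, the median of all genes moved from 0.01 to 0.19, and 17 members were higher and 1 was lower. All genes then split into 4638 higher and 1326 lower, compared with 2239 and 2525 under TMM. Below, changes under TMM are given, and a named gene that flips is stated as such. The groups did not overlap for 14 higher and 3 lower members, in a background of 12.5% and 14.2% of all genes and 26.7% in either direction.

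**Figure D1:**
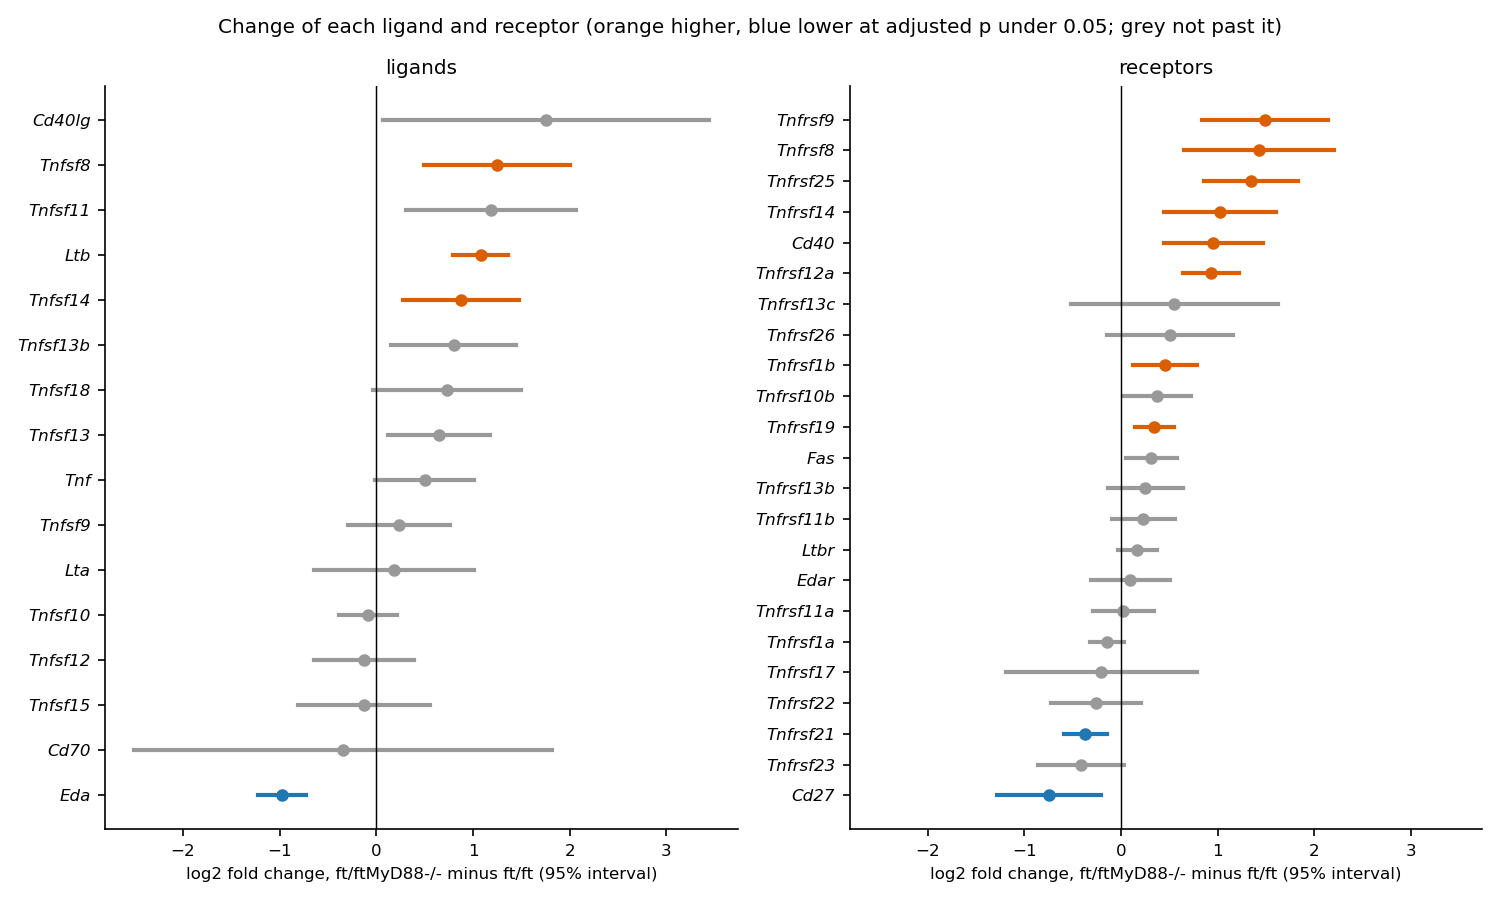
Log2 fold change of the ligands and the 23 receptors, ft/ftMyD88-/- minus ft/ft, without Fasl and Tnfsf4, which had at most 3 counts in each ft/ft library, with its 95% interval (n = 4 libraries per group). Genes past the threshold are orange where higher and blue where lower, and 8 of the 11 higher genes are receptors.

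Among ligands, 3 of 18 (16.7%) rose and 1 (5.56%) fell, against 10.9% and 12.3% of all genes tested. In either direction 22.2% of ligands were called, near the 23.3% of all genes. The ligands that rose were Ltb, Tnfsf8 and Tnfsf14, and the ligand that fell was Eda. The sum over all ligands was 61.9 ± 5.74 CPM in ft/ft and 62.1 ± 1.15 CPM in ft/ftMyD88-/-. The summed level therefore shows none of the separate movements.

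Ltb (chr17:35194439-35196320), which forms membrane heterotrimers with lymphotoxin alpha, was read at 8.79, 8.04, 8.59 and 6.36 CPM in ft/ft replicates 1 to 4 and at 15.4, 17.2, 15.6 and 19.0 CPM in ft/ftMyD88-/-. Each ft/ftMyD88-/- library lay well above each ft/ft library. The log2 fold change was 1.08 ± 0.13 (SE), or 2.11-fold, with an edgeR adjusted p of 0.000236. Its partner Lta (lymphotoxin alpha) was low, at 0.383 to 0.669 CPM in ft/ft and 0.257 to 0.680 CPM in ft/ftMyD88-/-, and the groups overlapped (log2 fold change 0.18, edgeR adjusted p = 0.768). Tnf, the founding ligand and neighbour of both genes, was at 1.80, 2.84, 1.34 and 2.57 CPM in ft/ft and 3.51, 3.01, 2.52 and 3.23 CPM in ft/ftMyD88-/-. The Tnf values overlapped at a single ft/ftMyD88-/- library, replicate 3. Its log2 fold change of 0.50 had a 95% interval from -0.01 to 1.01 and an edgeR adjusted p of 0.146. The 3 genes lie side by side in 1 cluster on chromosome 17, and Ltb was the one whose change passed the test. In bulk skin, more cells of a type and more RNA per cell cannot be told apart, nor can fewer cells and less RNA per cell, for this and every other member.

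Tnfsf8 (CD30 ligand, chr4:63831308-63861347) was at 0.557, 0.982, 0.502 and 0.230 CPM in ft/ft and at 1.31, 1.40, 1.43 and 1.34 CPM in ft/ftMyD88-/-. The ft/ft libraries were spread over a wide range and the ft/ftMyD88-/- libraries were tightly grouped above them. This gave a log2 fold change of 1.25 ± 0.35 (SE), with an edgeR adjusted p of 0.0219 that was 0.0547 without ft/ft replicate 3. Tnfsf14 (LIGHT, a ligand of Tnfrsf14 and Ltbr, chr17:57189492-57194177) was at 0.729, 1.56, 2.06 and 1.30 CPM in ft/ft and at 2.10, 2.76, 2.48 and 2.99 CPM in ft/ftMyD88-/-. The highest ft/ft library came within a few hundredths of the lowest ft/ftMyD88-/- library without crossing it. Tnfsf14 had a log2 fold change of 0.88 ± 0.28 (SE, edgeR adjusted p = 0.0376). That call was lost when any of 6 single libraries was left out, ft/ft replicates 1, 2 and 4 and ft/ftMyD88-/- replicates 2, 3 and 4, with an edgeR adjusted p of at most 0.0949.

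Eda (ectodysplasin A, chrX:99975606-100400762), the ligand that directs hair placode and gland formation, fell. It was at 22.8, 29.5, 24.2 and 25.0 CPM in ft/ft and at 14.1, 13.1, 13.0 and 11.3 CPM in ft/ftMyD88-/-. The groups were far apart relative to their spread. Eda had a log2 fold change of -0.98 ± 0.11 (SE), a level 0.508 times that of ft/ft, with an edgeR adjusted p of 0.000187. Eda is X-linked, as is Cd40lg, and the groups differed in sex-linked transcripts. The part of sex in the change was not tested. Marker sums moved with it. Sebocyte markers fell in 8 of 12 genes and summed to 22447 to 25583 CPM in ft/ft and 13628 to 19918 CPM in ft/ftMyD88-/-. Basal keratinocyte markers fell in 6 of 8 genes and summed to 14544 to 17750 against 10118 to 12356 CPM. Skeletal muscle markers fell in 8 of 10 genes and summed to 8235 to 11232 against 3175 to 6131 CPM. The sums of these 3 lists did not overlap between groups (exact permutation test, p = 0.0286 each, the smallest it can give). Sums of differentiated keratinocyte and endothelial markers were also lower without overlap, at the same p in that test, so the movement is not particular to the 3 lists. Of 13 anagen hair follicle markers, 3 rose, none fell, and their sum was 896 to 1413 against 1169 to 8191 CPM. The part of these cell types in the fall of Eda was not tested.

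The other ligands did not pass the test. Tnfsf10 (TRAIL, an inducer of apoptosis) was at 16.2, 16.9, 12.9 and 11.8 CPM in ft/ft and 14.5, 11.5, 13.7 and 14.9 CPM in ft/ftMyD88-/-, with overlap throughout and a 95% interval of the log2 fold change from -0.39 to 0.22. Tnfsf12 (TWEAK, which binds Tnfrsf12a) overlapped as well, at 2.61 to 5.08 CPM against 2.67 to 4.59 CPM (log2 fold change -0.13, 95% interval -0.64 to 0.39). Tnfsf10 and Tnfsf12 changed sign with totals as the scale, to 0.09 and 0.05. Tnfsf9 (4-1BB ligand) had a log2 fold change of 0.23 and Tnfsf15 (TL1A, the ligand of DR3) one of -0.13, which became 0.05 with totals as the scale.

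A further 4 ligands had estimates above 0.6 but missed the threshold. Tnfsf11 (RANKL, the osteoclast factor that lymphocytes and follicle cells also make) was at 0.429, 0.145, 0.223 and 0.230 CPM in ft/ft and 0.482, 0.808, 0.544 and 0.488 CPM in ft/ftMyD88-/-. Its groups did not overlap, yet the edgeR adjusted p was 0.0515 (log2 fold change 1.19, 95% interval 0.31 to 2.07). Tnfsf13 (APRIL) was likewise separated, at 0.652 to 1.13 against 1.25 to 1.50 CPM, with a log2 fold change of 0.65 and an edgeR adjusted p of 0.0727. Tnfsf13b (BAFF), which with APRIL sustains B cells and plasma cells, had 0.460 to 0.837 against 0.671 to 1.33 CPM and overlapped (log2 fold change 0.80, edgeR adjusted p = 0.0707). Tnfsf18 (GITR ligand) overlapped at 0.279 to 0.814 against 0.745 to 1.34 CPM (log2 fold change 0.73, edgeR adjusted p = 0.151).

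The scarcest ligands were counted too rarely for a statement. Cd40lg, the T cell ligand of CD40, had at most 5 counts in a ft/ft library and at most 11 in a ft/ftMyD88-/- library, with 0 in ft/ftMyD88-/- replicate 4, which allows up to 0.183 CPM. Its log2 fold change of 1.75 had a 95% interval from 0.07 to 3.44 and an edgeR adjusted p of 0.122. It passed at 2.09, with an edgeR adjusted p of 0.0377, without that library. Without ft/ft replicate 2, its highest ft/ft library, it was 2.58 with an edgeR adjusted p of 0.0713. Cd70, the ligand of Cd27, had at most 5 counts in any library. Fasl (Fas ligand) and Tnfsf4 (OX40 ligand) stood at or under 3 counts in each ft/ft library, so no fold is given, and a difference was not detectable at this depth. The antisense transcript Tnfsf13os was at 0.0767 to 0.502 CPM in ft/ft and 0.0438 to 0.306 CPM in ft/ftMyD88-/-.

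Among receptors, 8 of 23 (34.8%) rose and 2 (8.70%) fell, against 10.9% and 12.3% of all genes tested. The receptors with the largest estimates of those that passed were lymphocyte receptors of low level, Tnfrsf9, Tnfrsf8 and Tnfrsf25. Tnfrsf9 (4-1BB, chr4:150914562-150946102), a receptor of activated T cells, was at 1.16, 1.31, 0.669 and 0.844 CPM in ft/ft and 1.49, 3.53, 3.10 and 3.23 CPM in ft/ftMyD88-/-. Replicate 1 of ft/ftMyD88-/- was the low library, just above the ft/ft range, and the other 3 were more than double any ft/ft library. For Tnfrsf9 the log2 fold change was 1.49 ± 0.30 (SE, edgeR adjusted p = 0.00434).

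Tnfrsf8 (CD30, chr4:145267137-145315164), a receptor of activated lymphocytes, was at 0.300, 0.546, 0.390 and 0.268 CPM in ft/ft and 0.745, 1.51, 0.748 and 1.10 CPM in ft/ftMyD88-/-. The groups did not overlap, and replicate 2 was highest in both. The log2 fold change was 1.43 ± 0.36 (SE, edgeR adjusted p = 0.0133). Tnfrsf25 (DR3, chr4:152115934-152120119), a T cell receptor with a death domain, was at 0.857, 0.836, 1.12 and 0.728 CPM in ft/ft and 1.84, 2.61, 2.38 and 2.07 CPM in ft/ftMyD88-/-. Its groups were well separated, and the log2 fold change was 1.35 ± 0.22 (SE, edgeR adjusted p = 0.00150).

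Tnfrsf14 (HVEM, the LIGHT receptor, chr4:154921933-154928563) was at 0.557, 1.16, 0.892 and 1.23 CPM in ft/ft and 1.49, 2.09, 2.08 and 2.26 CPM in ft/ftMyD88-/-. The lowest library of each group was replicate 1, and the groups did not overlap. For Tnfrsf14 the log2 fold change was 1.03 ± 0.27 (SE, edgeR adjusted p = 0.0165). Cd40 (chr2:165055627-165072948), through which T cells activate B cells and dendritic cells, was at 1.89, 1.16, 1.62 and 1.65 CPM in ft/ft and 2.41, 2.87, 2.72 and 4.33 CPM in ft/ftMyD88-/-. Replicate 4 of ft/ftMyD88-/- was the highest, and the other 3 also lay above all ft/ft libraries. For Cd40 the log2 fold change was 0.95 ± 0.24 (SE, edgeR adjusted p = 0.0123).

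Cd27 (chr6:125232622-125237010), a receptor of naive and memory T cells that supports their survival, fell while other T cell receptors of the family rose. It was at 1.24, 0.982, 1.51 and 1.30 CPM in ft/ft and 0.833, 0.808, 0.612 and 0.732 CPM in ft/ftMyD88-/-, with no overlap. For Cd27 the log2 fold change was -0.74 ± 0.25 (SE) and the edgeR adjusted p was 0.0476. That call was lost in 12 of 15 alternatives, among them DESeq2 (adjusted p = 0.0638) and 7 of 8 omissions of a single library, all but ft/ft replicate 2, at an adjusted p of at most 0.112. Across all 15 it stayed between -0.85 and -0.57 on the log2 scale.

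**Figure D2:**
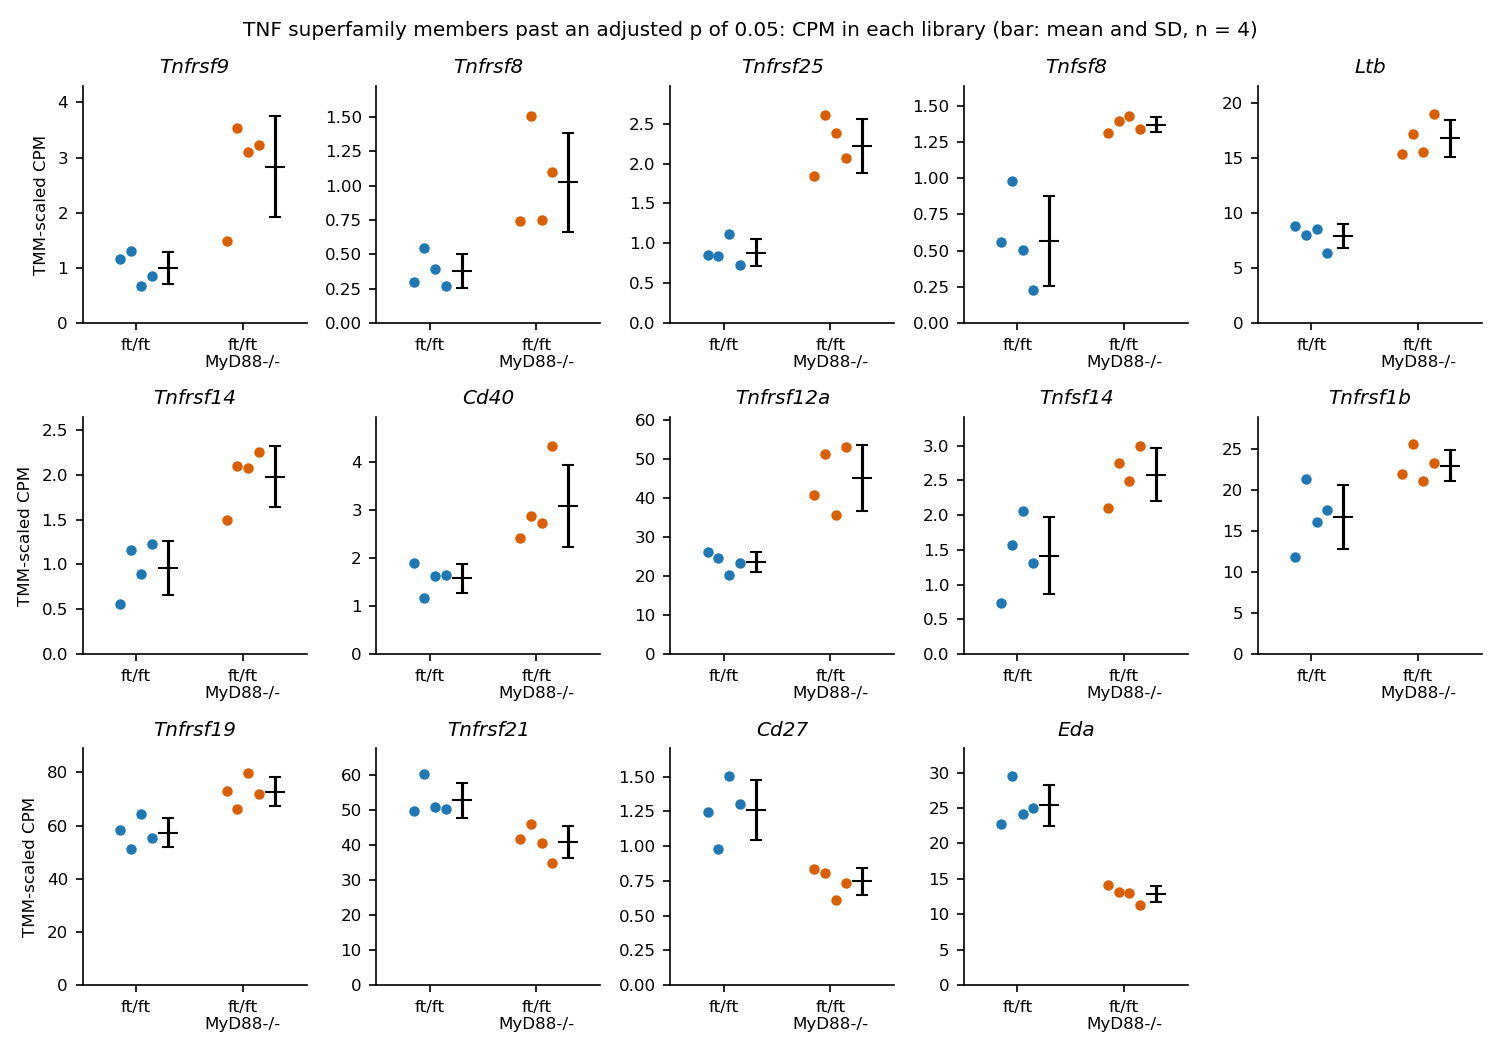
TMM-scaled CPM of the 14 members past the threshold in each library (points, replicates 1 to 4 from left to right), with the mean and SD of each group (bars, n = 4). The groups overlap in Tnfrsf1b alone, and Eda, Tnfrsf21 and Cd27 are the genes lower in ft/ftMyD88-/-.

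T cell markers moved with these receptors. All 10 T cell markers rose (median log2 fold change 0.97), and they summed to 117 to 171 CPM in ft/ft and 171 to 281 CPM in ft/ftMyD88-/- (exact permutation test, p = 0.0571). Without Thy1, which made up most of that sum, the other 9 summed to 21.3 to 26.4 CPM in ft/ft and 37.0 to 47.4 CPM in ft/ftMyD88-/-. Of 8 dendritic cell markers, 4 rose and 1 fell, with sums of 54.4 to 65.9 against 60.9 to 84.6 CPM. Of 6 B cell markers tested 1, Blk, rose, and their sum was 2.23 to 6.08 CPM in ft/ft and 6.83 to 8.11 CPM in ft/ftMyD88-/-, without overlap (exact permutation test, p = 0.0286, the smallest it can give). The 1 that rose is 16.7% of the 6, against 10.9% of all genes tested, and estimates were positive in 4 and negative in 2. The B cell markers Cd79a, Cd79b and Ms4a1 were under 1 CPM in every library, and Pax5 and Cr2 were not among the genes tested. The sum therefore does not show more B cells.

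To place the lymphocyte members on that scale, 12 of them were divided by the sum of the 9 T cell markers, a comparison chosen after the data were seen. Cd27 was then 4.95, 4.34, 5.70 and 6.13 CPM per 100 marker CPM in ft/ft and 2.25, 1.97, 1.38 and 1.54 in ft/ftMyD88-/-. The ft/ftMyD88-/- mean was 0.338 times the ft/ft mean. Since Cd27 was lower and the markers were higher in every ft/ftMyD88-/- library, the division could only widen its gap, and no test is drawn from it. Tnfrsf25 stayed separated, at 3.69 ± 0.378 against 5.26 ± 0.827 CPM per 100 marker CPM. For Tnfrsf25 the two-sided exact permutation p was 0.0286, the smallest that 4 against 4 libraries can give, and 0.171 after Benjamini-Hochberg adjustment over the 12 genes.

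On the same scale the other differences were within reach of the spread. Ltb had 33.2 ± 2.58 against 39.6 ± 3.13 CPM per 100 marker CPM, with an exact permutation p of 0.0571 (adjusted 0.171). Tnfrsf9 had 4.22 ± 1.36 against 6.60 ± 1.89 (exact permutation p = 0.0857), Tnfrsf8 1.59 ± 0.563 against 2.42 ± 0.869 (exact permutation p = 0.143) and Tnfsf8 2.38 ± 1.39 against 3.25 ± 0.310 (exact permutation p = 0.286). Tnfsf14 was 5.94 ± 2.14 against 6.07 ± 0.529 and Tnfrsf14 was 4.13 ± 1.63 against 4.64 ± 0.448, with overlapping groups (exact permutation p = 0.971 and 0.600). The estimates for Tnf and Lta changed sign, to log2 ratios of -0.33 and -0.65, with exact permutation p of 0.371 and 0.0571. How far T cells account for any of these changes was not tested.

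**Figure D3:**
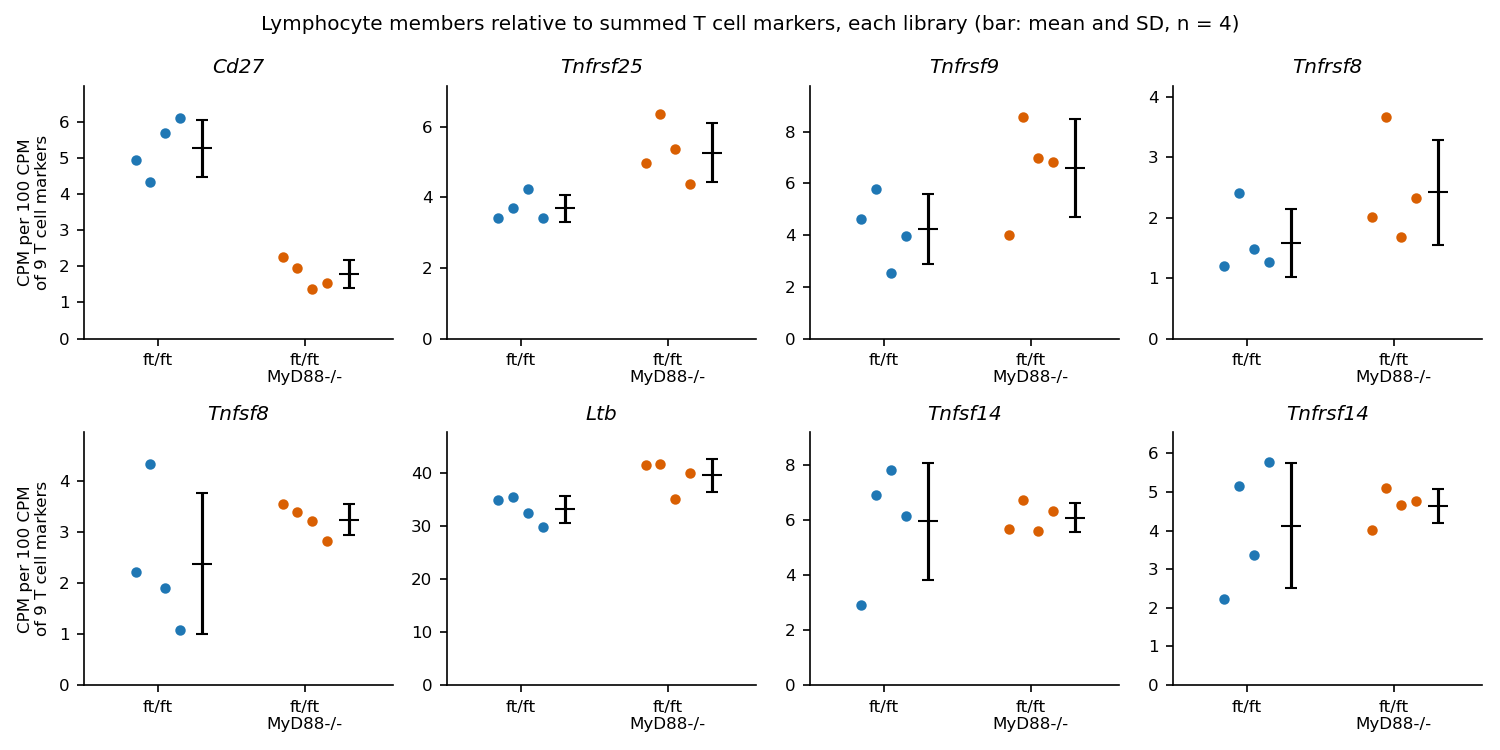
CPM of 8 lymphocyte members per 100 CPM of 9 summed T cell markers in each library (points), with mean and SD of each group (bars, n = 4). Cd27 is lower in all ft/ftMyD88-/- libraries, Tnfrsf25 is higher in all, and the other groups overlap.

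Tnfrsf12a (Fn14, the TWEAK receptor, induced in injured tissue, chr17:23675445-23677468) was at 26.1, 24.7, 20.2 and 23.3 CPM in ft/ft and 40.6, 51.1, 35.6 and 53.1 CPM in ft/ftMyD88-/-. All ft/ftMyD88-/- libraries were higher, and their spread was wider. The log2 fold change was 0.93 ± 0.13 (SE), or 1.91-fold, with an edgeR adjusted p of 0.000662. Stress keratinocyte markers, which mark injured epidermis, had positive estimates in 8 of 8 genes, of which 1 passed, and summed to 3388 to 4403 against 3878 to 6595 CPM. Their part in the rise of Tnfrsf12a was not tested.

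Tnfrsf19 (TROY, a receptor of hair follicle and other epithelial progenitors, chr14:60963875-61046490) was at 58.4, 51.3, 64.4 and 55.2 CPM in ft/ft and 73.1, 66.2, 79.7 and 72.1 CPM in ft/ftMyD88-/-. The groups did not overlap, and the highest ft/ft library lay just under the lowest ft/ftMyD88-/- library. For Tnfrsf19 the log2 fold change was small, 0.34 ± 0.09 (SE, edgeR adjusted p = 0.0192, and 0.0620 without ft/ft replicate 4). Tnfrsf21 (DR6, a death-domain receptor, chr17:43016555-43089189) was at 49.6, 60.3, 50.9 and 50.5 CPM in ft/ft and 41.8, 46.1, 40.7 and 35.0 CPM in ft/ftMyD88-/-. It was lower in all ft/ftMyD88-/- libraries, with a log2 fold change of -0.37 ± 0.10 (SE, edgeR adjusted p = 0.0218). The call was lost with totals as the scale, without ft/ft replicate 2, and without ft/ftMyD88-/- replicate 3 or 4, at edgeR adjusted p of 0.203, 0.0566, 0.0524 and 0.0672.

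TNF itself has 2 receptors. Tnfrsf1a (TNFR1, which carries a death domain and is found on most cells) was at 194, 206, 201 and 203 CPM in ft/ft and 176, 202, 176 and 173 CPM in ft/ftMyD88-/-. Replicate 2 of ft/ftMyD88-/- lay among the ft/ft libraries and the other 3 lay below them. The log2 fold change of -0.15 had a 95% interval from -0.32 to 0.03 and became 0.03 with totals as the scale. Tnfrsf1b (TNFR2, mainly on leukocytes and endothelium, chr4:145213463-145246870) was at 11.9, 21.4, 16.1 and 17.6 CPM in ft/ft and 22.0, 25.6, 21.1 and 23.3 CPM in ft/ftMyD88-/-. The groups overlapped at ft/ft replicate 2, and ft/ft replicate 1 was the lowest. Its log2 fold change of 0.46 ± 0.15 (SE) passed narrowly (edgeR adjusted p = 0.0498) and did not in 8 of 15 alternatives, namely limma voom and every omission of 1 library but that of ft/ft replicate 2, at an adjusted p of at most 0.123.

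Of 10 macrophage and monocyte markers 2 rose, with sums of 350 to 498 CPM in ft/ft and 413 to 614 CPM in ft/ftMyD88-/-. Of 8 endothelial markers 1 rose and 3 fell. Their sum was lower, at 275 to 336 against 208 to 270 CPM, without overlap (exact permutation test, p = 0.0286, the smallest it can give). Of 6 neutrophil markers tested 1 (16.7%) rose, against 10.9% of all genes tested. Their sum was 31.2 to 263 CPM in ft/ft and 406 to 967 CPM in ft/ftMyD88-/-, without overlap (exact permutation test, p = 0.0286, the smallest it can give). Ly6g and Retnlg were not among the genes tested, and Mmp8 was under 1 CPM in every library. The part of these cells in the rise of Tnfrsf1b was not tested.

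The lymphotoxin receptor and the remaining death-domain receptors did not pass. Ltbr, which signals through the non-canonical NF-kB kinase, was at 69.7, 75.9, 74.9 and 69.9 CPM in ft/ft and 80.4, 94.1, 73.3 and 79.1 CPM in ft/ftMyD88-/-, with overlap (log2 fold change 0.17, 95% interval -0.03 to 0.37). Fas, the receptor of Fas ligand, was at 7.24, 7.86, 6.47 and 7.67 CPM in ft/ft and 8.41, 9.70, 8.57 and 9.82 CPM in ft/ftMyD88-/-. The Fas groups did not overlap, but the log2 fold change of 0.32 had an edgeR adjusted p of 0.0817. Tnfrsf10b, the TRAIL receptor, was separated too, at 2.53 to 3.30 against 3.57 to 4.27 CPM (log2 fold change 0.37, edgeR adjusted p = 0.114). Edar, the receptor of Eda, was at 2.07 to 2.53 against 1.83 to 2.63 CPM, with a 95% interval of its log2 fold change from -0.31 to 0.50. Of the 6 death-domain receptors, Tnfrsf1a, Fas, Tnfrsf10b, Tnfrsf21, Tnfrsf25 and Edar, 1 rose and 1 fell. Each is 16.7% of them, against 10.9% higher and 12.3% lower of all genes tested.

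Receptors of the RANKL and B cell ligands also overlapped between groups. Tnfrsf11a (RANK) was at 8.96, 11.1, 8.65 and 9.97 CPM in ft/ft and 9.20, 12.4, 9.42 and 8.35 CPM in ft/ftMyD88-/-, a log2 fold change of 0.03 with a 95% interval from -0.29 to 0.34. Tnfrsf11b (osteoprotegerin, a soluble decoy of RANKL) was at 13.7, 8.26, 10.8 and 10.6 CPM against 12.1, 12.8, 11.6 and 14.5 CPM (log2 fold change 0.23, 95% interval -0.10 to 0.56). For Tnfrsf13b (TACI), Tnfrsf13c (BAFF receptor) and Tnfrsf17 (BCMA), the receptors of BAFF and APRIL, the log2 fold changes were 0.25, 0.55 and -0.20, with 95% intervals from -0.14 to 0.64, -0.51 to 1.62 and -1.19 to 0.79.

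The mouse receptors Tnfrsf22 and Tnfrsf23, decoys for TRAIL, and the related Tnfrsf26 form a cluster on chromosome 7. Tnfrsf23 was at 7.29, 8.18, 7.98 and 6.63 CPM in ft/ft and 4.12, 7.75, 4.15 and 6.65 CPM in ft/ftMyD88-/-, and ft/ftMyD88-/- libraries fell into a low and a high pair (log2 fold change -0.41, edgeR adjusted p = 0.170). Tnfrsf22 and Tnfrsf26 had log2 fold changes of -0.26 and 0.51, with edgeR adjusted p of 0.415 and 0.249. These are near-identical copies in part: 27.4% of the 50-base stretches of Tnfrsf22 and 19.3% of those of Tnfrsf23 occur in another gene, so their counts are uncertain. The same holds for Tnfsf12 (46.8%) and Tnfsf13 (57.3%), which share exons with the read-through gene Tnfsfm13. Tnfsf9, Tnfsf13, Tnfsf13os, Tnfrsf23 and Tnfrsf26 overlap genes of the opposite strand. The sources used here name default HTSeq parameters and no strand setting for the counts.

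Levels can be compared between genes only per length, here as CPM per kb of exon. This scale holds for reads drawn from whole transcripts, as in the TruSeq libraries the study describes. The labels name a fixed-tissue protocol, whose counts would not grow with length, so the order between genes depends on which of these made the counts. In ft/ft the receptors were led by Tnfrsf1a at 77.6 CPM per kb and Ltbr at 30.8, each clear of the next. They were followed by Tnfrsf21 at 12.9, Tnfrsf12a at 12.2 and Tnfrsf19 at 12.1, whose values overlapped. In ft/ftMyD88-/- the first 2 kept their places, at 70.1 and 34.7 CPM per kb, and the next 3 no longer overlapped, with Tnfrsf12a at 23.3, Tnfrsf19 at 15.4 and Tnfrsf21 at 9.95. Among ligands in ft/ft, Ltb at 5.24 and Eda at 3.72 CPM per kb overlapped, ahead of Tnfsf10 at 2.74, Tnfsf12 at 2.58 and Tnf at 1.30. In ft/ftMyD88-/- Ltb stood alone at 11.1 CPM per kb, while Tnfsf10 was at 2.59, Tnfsf12 at 2.34, Eda at 1.89 and Tnf at 1.87.

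**Figure D4:**
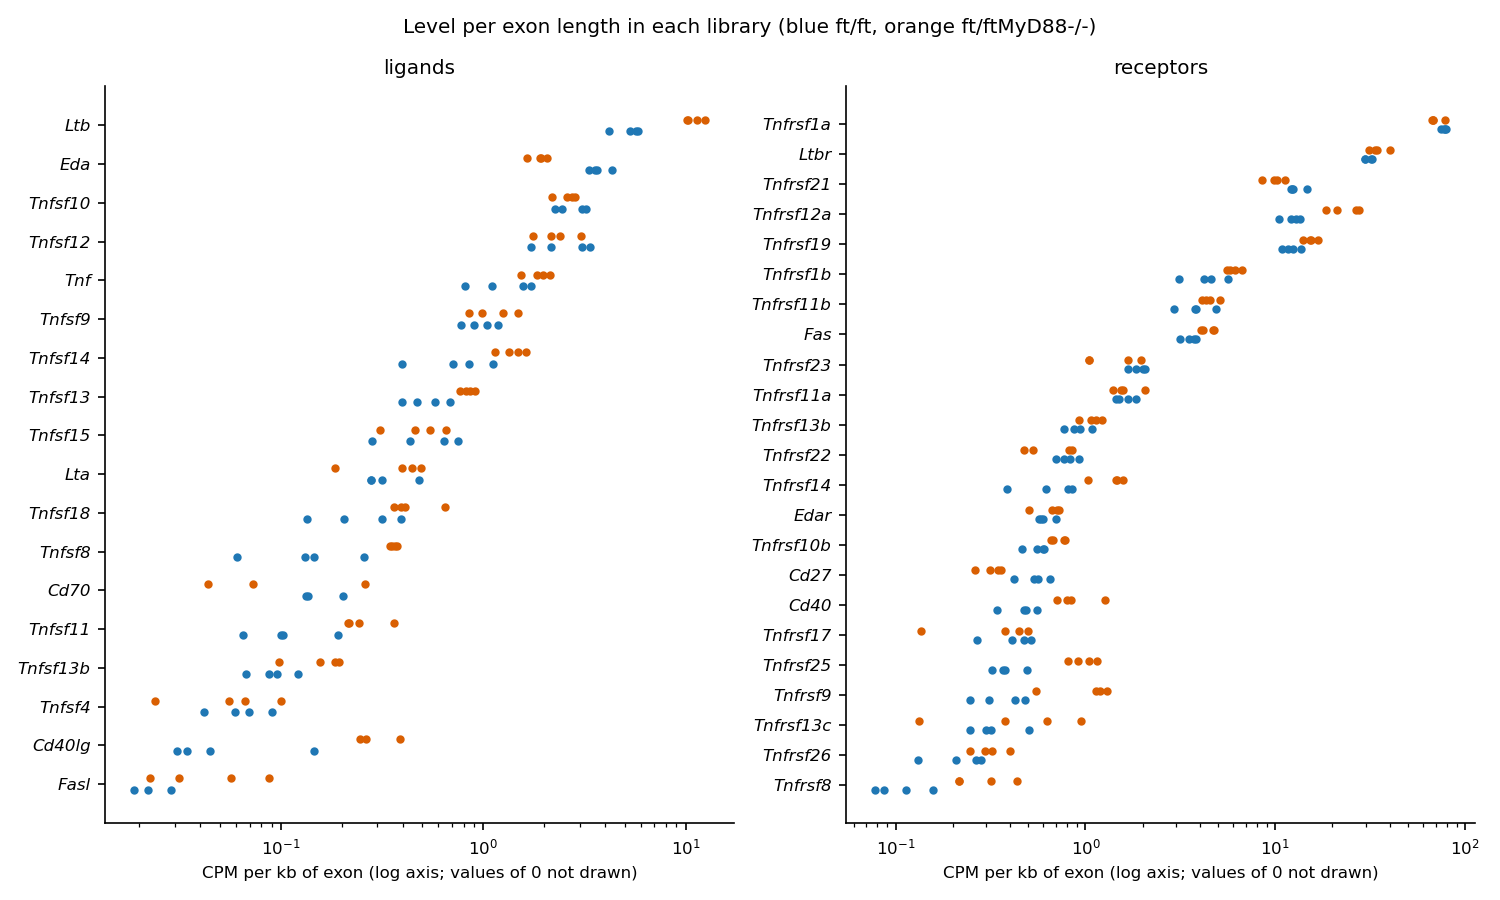
CPM per kb of exon in each library on a log axis for the 18 ligands and 23 receptors, ordered by the ft/ft mean (blue ft/ft, orange ft/ftMyD88-/-, values of 0 not drawn). Tnfrsf1a and Ltbr lead the receptors in both groups, and Ltb leads the ligands.

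Of 20 ligand and receptor pairs formed from known binding, both partners rose in 2, Tnfsf14 with Tnfrsf14 and Tnfsf8 with Tnfrsf8. A single partner was called in 9 pairs and neither in 9. Of all members 33.3% were called, against 23.3% of all genes tested, and some members recur in several pairs. The pair counts were not tested against these shares and are not read as joint movement. In 6 of the 9 the receptor alone was called: Tnfrsf1b, Tnfrsf9, Tnfrsf25, Cd27, Cd40 and Tnfrsf12a. In the other 3 the ligand alone was called, Ltb and Tnfsf14 with Ltbr, and Eda with Edar. A transcript in bulk skin does not show which cells carry it, so these pairs do not show contact.

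A list of 53 signalling genes holds adaptors, kinases, ubiquitin enzymes, caspases, necroptosis proteins, NF-kB subunits with their inhibitors, and the proteases that shed ligands and receptors with their regulators. Of these, 11 rose and 3 fell. These are 20.8% and 5.66% of the list, against 10.9% and 12.3% of all genes, and the median of the list was 0.10 on the log2 scale. With totals as the scale 26 rose and none fell. Map3k14 and Traf1 had the largest log2 fold changes of those that passed. Map3k14 (NIK, the kinase of non-canonical NF-kB used by Ltbr, Cd40 and Tnfrsf12a) was at 5.59 ± 2.17 CPM in ft/ft and 12.9 ± 1.03 CPM in ft/ftMyD88-/-, a log2 fold change of 1.20 ± 0.23 (SE, edgeR adjusted p = 0.00419). Traf1, an adaptor of Tnfrsf1b and Tnfrsf9, was at 3.88 ± 0.365 against 7.81 ± 0.719 CPM (log2 fold change 1.01, edgeR adjusted p = 0.000541). Traf3, which holds NIK low, was at 27.7 ± 3.93 against 38.3 ± 1.98 CPM (log2 fold change 0.47, edgeR adjusted p = 0.00802).

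Brakes and effectors were among the others. Tnfaip3 (A20), a deubiquitinating brake on NF-kB, rose by a log2 fold change of 0.56 (edgeR adjusted p = 0.00768), and Birc3 (cIAP2), a ubiquitin ligase at the receptor, by 0.32. Mlkl, the pore-forming protein of necroptosis, rose by 0.63 and Map3k5 (ASK1, a stress kinase) by 0.59. Rela (p65, an NF-kB subunit) fell by 0.32, from 73.5 ± 4.81 to 58.8 ± 2.19 CPM, with an edgeR adjusted p of 0.0122. Rbck1 (HOIL-1, a subunit of the linear ubiquitin ligase) fell by 0.38 on the log2 scale (edgeR adjusted p = 0.00593). Neither fall passed with totals as the scale. The groups did not overlap in any of the signalling genes named here, which were chosen for that and for their size.

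Of 4 relatives outside the symbol rule, Relt, an orphan receptor of the family, rose from 2.08 ± 0.302 to 3.25 ± 0.514 CPM (log2 fold change 0.64, edgeR adjusted p = 0.0297). Ngfr (the neurotrophin receptor p75), Eda2r (the second ectodysplasin receptor) and Edaradd (the adaptor of Edar) did not pass, with log2 fold changes of -0.35, 0.20 and 0.30. With Eda lower, neither of its receptors nor the adaptor of Edar passed the test.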

How the data were processed

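RNA-seq of periocular skin was analysed from the deposited table of raw counts. According to the study's methods, the authors aligned reads using HISAT and tophat2, with NCBI's GRCm38.p6 as reference, and ran HTSeq with default settings. The values were whole numbers with a different total in each library. The labels of these 8 samples instead name Cell Ranger, total RNA and a fixed-tissue protocol, whereas the study describes polyA-selected TruSeq libraries. Tool versions and a strand setting beyond the HTSeq default are not given in the sources used here. No per-sample column was left unused, and the 4 wild-type samples were not analysed here.

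Of 21247 genes, the 20454 with at least 10 counts over the 8 libraries were fitted in R 4.3.3 with edgeR 4.0.16 (TMM, glmQLFit with robust = TRUE, glmQLFTest, two-sided, no covariate), with Benjamini-Hochberg adjustment at 0.05. CPM is edgeR's value on TMM-scaled library sizes. Sums of marker lists were compared by two-sided exact permutation tests over libraries. The scripts were tested on simulated data. Replicates of a group differed beyond sampling noise. The 95% intervals are those of the edgeR fit and include the spread between libraries, while the floor of 3 counts covers counting error only.

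Gene coordinates and exon lengths came from GENCODE on GRCm38.p6. The members, gene lists and pairs were chosen with earlier results of these data known. Named were all members, with values per library for those past the threshold or at 5 CPM or more, and at most 10 signalling genes past the threshold without overlap, by size. A signalling gene that this rule names and a marker gene are not reported here. Alternatives were DESeq2 1.42.0, limma 3.58.1 voom, RLE and library-size scaling, other filters and thresholds, a replicate block and omission of each library. T cell scaling was added after the data were seen.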

Additional observations from a re-analysis of the deposited data

Results flagged for a closer look

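In 84 sets of 4 libraries (42 members in each group) a single library stood apart in 3 by Dixon's criterion, which chance meets in about 1 of 20 sets. Cd40lg in ft/ft replicate 2 was at 0.182 CPM, while the other 3 ft/ft libraries were at 0.0383 to 0.0558 CPM, and these values rest on at most 5 counts. Tnfrsf1a in ft/ftMyD88-/- replicate 2 was at 202 CPM, above the 173 to 176 CPM of the other ft/ftMyD88-/- libraries. Tnfrsf21 in ft/ft replicate 2 was at 60.3 CPM, above the 49.6 to 50.9 CPM of the other ft/ft libraries.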

How the results depend on the processing

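Eda, Ltb, Tnfrsf12a, Tnfrsf25, Tnfrsf9, Cd40, Tnfrsf8 and Tnfrsf14 kept their direction and stayed past the threshold in all 15 alternative fits. With totals alone as the scale 17 members were higher and 1 lower, 26 and 0 signalling genes, and 4638 and 1326 of all genes. At an adjusted p of 0.01 the counts were 4 and 1, 5 and 1, and 951 and 1350, and with a log2 fold change of at least 1 in size they were 6 and 0, 2 and 0, and 752 and 520. Leaving out single libraries gave 8 to 11 higher and 1 to 2 lower members, 7 to 12 higher and 2 to 4 lower signalling genes, and 1462 to 2260 higher and 1851 to 2408 lower genes among all tested, with the fewest higher genes without ft/ft replicate 4. Same-numbered libraries correlated at -0.15 to 0.03 in their deviations from the group means, and 1 of 4 libraries correlated best with its own number. These values show no pairing by number, but so few libraries cannot exclude one. A fit with the replicate block gave 11 higher and 2 lower members, 8 and 3 signalling genes, and 1895 and 2144 of all genes tested. The estimates of 10 members, none of them past the threshold, changed sign in an alternative. With totals as the scale the log2 fold change became 0.032 for Tnfrsf1a, 0.092 for Tnfsf10, 0.048 for Tnfsf12, 0.021 for Tnfsf13os and 0.048 for Tnfsf15, and per T cell marker it became -0.33 for Tnf and -0.65 for Lta. Without single libraries the log2 fold change ranged from -1.61 to 0.15 for Cd70, -0.10 to 0.10 for Tnfrsf11a, -0.43 to 0.10 for Tnfrsf17, -0.28 to 0.015 for Tnfsf12, -0.50 to 0.44 for Tnfsf13os and -0.32 to 0.091 for Tnfsf15. Fasl and Tnfsf4, for which no fold is given, are left out of these ranges. The causes of these sign changes were not tested. Of genes that missed the threshold, Tnfsf11 passed in 5 alternatives, Fas, Tnfsf13 and Tnfsf13b in 2 each, and Cd40lg, Ltbr and Tnfrsf10b in 1 each. Depth limits the 6 members with a mean under 10 counts.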
